A study of Homo sapiens with 2 samples.

Results

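The genes described here are SOX2, 3 other SOX genes (SOX4, SOX11 and SOX12), MYC, KLF4 and LIN28B. Their RNA was examined in 2 lists of sites called after crosslinking and immunoprecipitation of SOX2 protein. A site was assigned to a gene when it overlapped, on the gene's strand, the hg19 interval set for that gene in whole kb. By this rule 33 sites of 72794 in all belonged to the 7 genes: 9 of 16964 in replicate 1 and 24 of 55830 in replicate 2. The lists came from PAR-CLIP. In this method a photoreactive uridine is built into the cells' RNA, ultraviolet light joins the RNA to bound protein, and fragments recovered with the protein by immunoprecipitation are sequenced. Both samples were HEK293T, a human embryonic kidney line carrying the SV40 large T antigen. They carried a plasmid for SOX2 with a FLAG tag, received 0.2 mM 4-thiouridine from 24 hours after transfection for 16 hours, and were irradiated at 365 nm with 0.4 J/cm2. They form 1 group of 2 independent experiments, and no library without SOX2 or without immunoprecipitation is used here. RNA levels and background crosslinking were therefore not measured, and fewer crosslinks cannot be told apart from less RNA.

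SOX2 belongs to the SOX family of transcription factors, which bind DNA through an HMG box. SOX4, SOX11 and SOX12 form the SOXC group of this family and act in progenitor cells. SOX2, KLF4 (a zinc finger factor), MYC (a helix-loop-helix leucine zipper factor) and POU5F1 are the classic set that reprograms somatic cells to pluripotency. LIN28B is an RNA-binding protein that blocks the maturation of let-7 microRNAs. Since the cells made SOX2 from a plasmid, gene-strand sites in SOX2 may come from the plasmid's RNA, from the chromosomal gene's RNA or from both. The lists do not separate them.

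Each list gives a position, a strand and a score for every site. Scores are whole numbers from 5 upwards, and what they count was not stated in the sources used here. It summed to 5365592 in replicate 1 and 5192778 in replicate 2, with a median of 26 and 19 per site. To set genes side by side, a gene's summed score is also given as its share of the list, in parts per 1000000 of the score sum, called the score share.

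SOX2 stood far above the other 6 genes in score. It took 1233 of 1505 (81.9%) of the members' score in replicate 1 and 8653 of 9270 (93.3%) in replicate 2. SOX4, SOX12, MYC and LIN28B had 1 or more sites in each list, with scores of 6 to 132 in replicate 1 and 8 to 197 in replicate 2. SOX11 and KLF4 had none in either list. With no measure of RNA abundance, an empty interval shows only that no site was listed there.

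**Figure D1:**
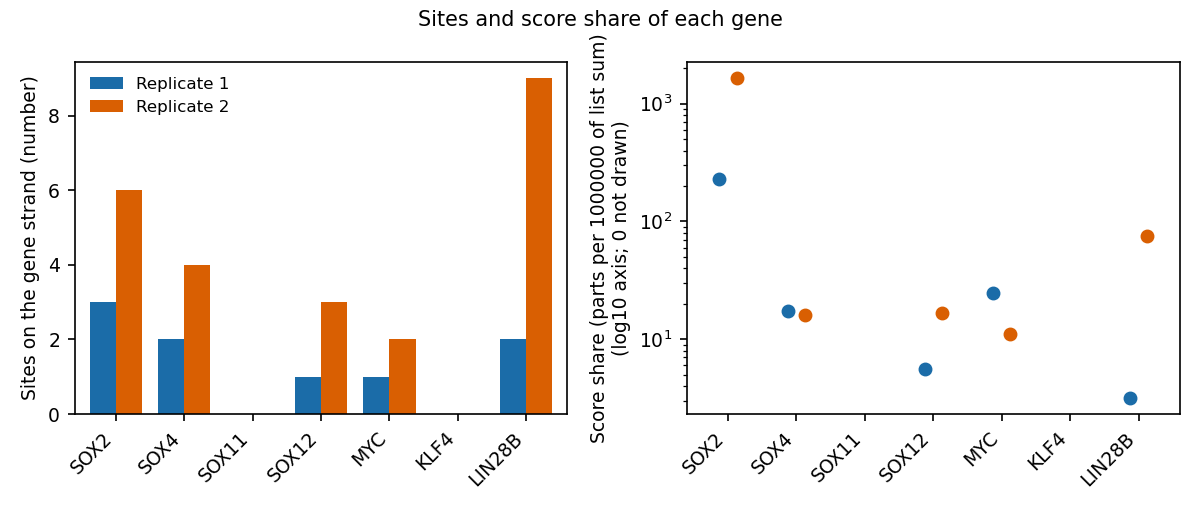
The left panel plots the number of gene-strand sites per gene (bars, linear axis from 0) and the right panel the score share in parts per 1000000 of the list sum (points, log axis) in both replicates. SOX2 lies at 230 in replicate 1 and 1666 in replicate 2, and no other gene exceeds 75.3.

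The SOX2 interval, chr3 from 181429 to 181433 kb on the plus strand, held 3 sites in replicate 1 and 6 in replicate 2. In replicate 1 the sites lay at 181430462 to 181430491 (score 142), 181430622 to 181430641 (score 528) and 181430803 to 181430819 (score 563). In replicate 2 the strongest sites lay at 181430621 to 181430640 (score 3361) and 181430798 to 181430819 (score 3877). These are the same places as the strongest sites of replicate 1. Further replicate 2 sites began at 181430189 (score 87), 181430935 (score 903), 181430977 (score 57) and 181431049 (score 368). None of them overlapped a replicate 1 site, and over the whole list 6.5% of replicate 2 sites did.

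The 2 shared SOX2 sites carried most of the gene's score in both lists, 88.5% in replicate 1 and 83.7% in replicate 2. Their edges nearly coincided. The upstream site measured 20 nt in both lists and was offset by 1 nt, and the downstream site ended on the same base in both and began 5 nt apart. They ranked 474 and 449 of 16964 sites in replicate 1, and 101 and 91 of 55830 in replicate 2. They were separated by 161 nt in replicate 1, and by 157 nt in the other list.

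SOX2 scores were higher in replicate 2 than in replicate 1. The score ratio of replicate 2 to replicate 1 was 6.37 at the upstream shared site and 6.89 at the downstream one, or 2.67 and 2.78 on the log2 scale. Over all 3621 shared sites the median log2 ratio was -0.21, with an SD of 1.37 across sites, and 2.68% and 2.43% of them had a ratio at least as high as these SOX2 sites. The SOX2 score share averaged 948 ± 1016 per 1000000 (SD, n = 2), so its spread exceeded its mean. The ratio of these shares was 7.25, and 4.47 when each list was scaled to its score outside its 10 strongest sites. Plasmid level per experiment was not measured, and its part in this ratio was not tested.

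The density and score of SOX2 were high for these lists. Genomic windows of 4 kb, as wide as the SOX2 interval, served as the comparison, counted on each strand where they held at least 1 site. Of 14317 such windows in replicate 1, 3.18% held 3 or more sites, and 215 windows had a score sum as high as SOX2. Of 32361 windows in replicate 2, 3.12% held 6 or more sites, and 43 windows had a score sum as high. SOX2 thus ranked higher by score than by number of sites in both lists.

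The SOX2 interval held sites on both strands, and the origin of those on the opposite strand was not tested. The opposite strand of the interval held 2 sites in replicate 1, with scores of 79 and 172, and 4 in replicate 2, with scores of 38, 210, 102 and 387 in genomic order. They took 16.9% of the interval's score in replicate 1 and 7.85% in replicate 2. How the authors' site calling handled strand was not stated. In replicate 1 the opposite-strand sites were at 181430452 to 181430466 and 181430781 to 181430794. In replicate 2 they were at 181430174 to 181430197, 181430891 to 181430917, 181430949 to 181430966 and 181431056 to 181431073. No opposite-strand site was shared between the replicates, and the smallest gap between them was 96 nt. Over the whole lists 21.3% of replicate 1 sites and 6.5% of replicate 2 sites were shared.

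Several opposite-strand sites lay directly across from SOX2 sites of the same list. In replicate 1, 1 of 3 SOX2 sites overlapped one, while over the whole list 0.106% of sites overlapped an opposite-strand site. In replicate 2, 3 of 6 did, against 0.134% of all sites. The interval alone held 2 of the 18 such sites of replicate 1 and 6 of the 75 of replicate 2, counting both strands. At the site beginning at 181431049 the scores on both strands were close, 368 on the gene strand and 387 on the opposite strand, with 18 nt in common. The other overlaps were shorter, from 5 to 12 nt, and there the gene strand scored at most 8.85 times higher, at the pair with scores of 903 and 102. Among the 455 windows of 4 kb with at least 3 sites on a strand in replicate 1, 5.93% held a site on the other strand and 2.86% held 2 or more. Among the 1011 windows with at least 6 in replicate 2, 7.22% held a site on the other strand and 2.27% held 4 or more. SOX2 was the only gene of the 7 with opposite-strand sites: the intervals of the other 6 held none in either list.

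**Figure D2:**
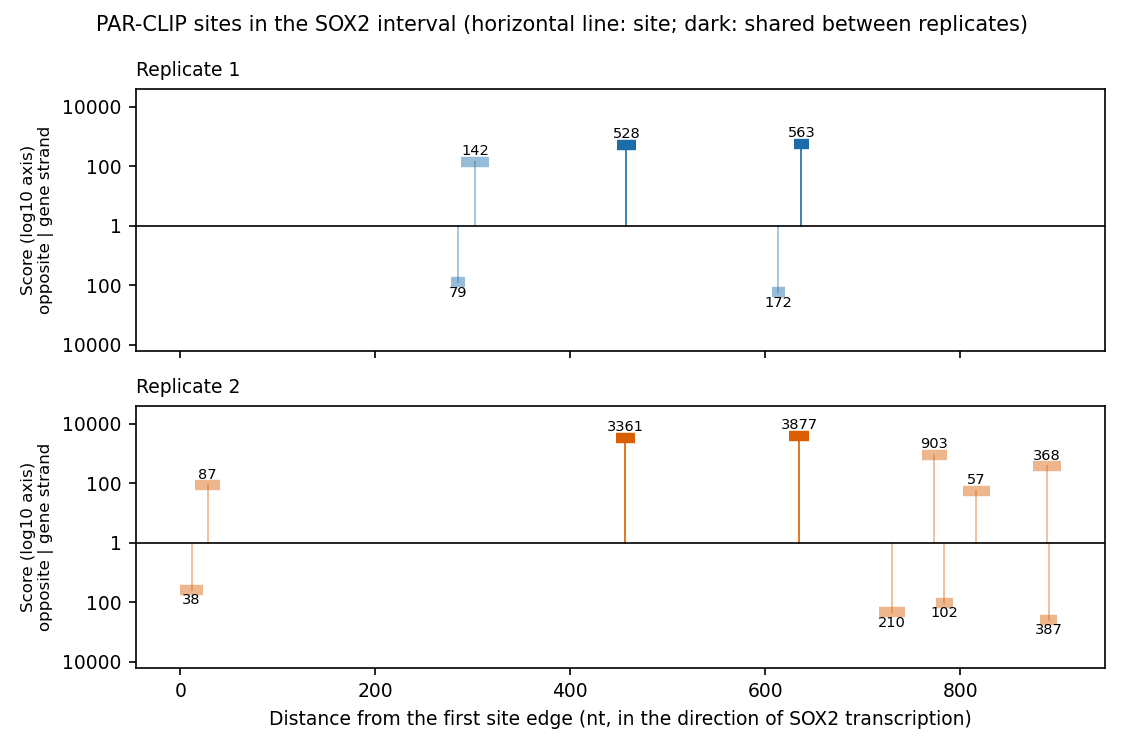
Sites in the SOX2 interval are drawn as horizontal lines by distance in nt from the first site edge (x axis) and by score (log axis), gene strand upwards and opposite strand downwards, 1 panel per replicate. The darker lines, with scores of 528 and 563 in replicate 1 and 3361 and 3877 in replicate 2, are the shared sites.

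All sites of the SOX2 interval, on either strand, fell in a stretch as short as the coding sequence. From the first to the last site edge, both lists and both strands together, they spanned 904 nt, from 181430174 to 181431077. In the GENCODE annotation SOX2 is a gene of 1 exon with a transcript of 2513 nt, of which 954 nt, stop codon included, are coding for 317 amino acids. The span was thus 50 nt shorter than the coding length, and at least 1609 nt of the transcript held no site. Only lengths were taken from the annotation, which is on GRCh38, so where the span begins within the transcript was not determined. The labels do not say whether the plasmid carries untranslated regions. Within the 4 kb interval, 1173 nt before the first site and 1923 nt after the last were empty on both strands. The surroundings were empty too: no site of either list lay within 100 kb of the interval on either side or strand. SOX2-OT, a long noncoding RNA gene whose annotated extent includes SOX2 on the same strand, therefore had no listed site in these flanks.

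SOX4 (interval chr6 from 21593 to 21599 kb, plus strand) had sites spread along its length, of which 1 in each list scored at or above the median of the list. Replicate 1 listed sites on chromosome 6 at 21595915 to 21595931 (score 83) and 21596863 to 21596876 (score 10). Replicate 2 listed sites at 21594259 to 21594274 (score 15), 21596099 to 21596112 (score 8), 21597982 to 21597997 (score 48) and 21598245 to 21598261 (score 12). None overlapped between the lists, and neither do most sites: 21.3% of all replicate 1 sites and 6.5% of all replicate 2 sites did. The closest pair, at 21595931 and 21596099, was 167 nt apart. Together the 6 sites spanned 4003 nt, and the annotated transcript is a single exon of 5852 nt. The summed score hardly differed between replicates, with a score share of 17.3 per 1000000 in replicate 1 and 16.0 in replicate 2. Windows of 6 kb with a site held as many sites as SOX4 in 16.2% of cases in replicate 1 and 11.4% in replicate 2, so its counts were not unusual for the lists.

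SOX12 (chr20 from 306 to 311 kb, plus strand) had 1 site in replicate 1 and 3 in replicate 2, again with none shared. The replicate 1 site on chromosome 20 at 310821 to 310834 scored 30. It lay 166 nt from the downstream end of the interval. The replicate 2 sites at 308628 to 308648, 308882 to 308899 and 309259 to 309276 scored 31, 27 and 28. They stood close together, with gaps of 233 and 359 nt, and the replicate 1 site was 1544 nt beyond the last of them. Windows of 5 kb with a site held at least 3 in 18.1% of cases in replicate 2. All SOX12 sites scored above the median of their list, 26 in replicate 1 and 19 in replicate 2. Over the whole lists 21.3% of replicate 1 sites and 6.5% of replicate 2 sites were shared. The absence of shared sites in SOX12 and SOX4 was thus not unusual for so few sites.

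SOX11 differed from both by having no site. Its interval, chr2 from 5832 to 5842 kb on the plus strand, is the widest of the SOX intervals at 10 kb and was empty in both lists. So were the 100 kb on either side of it, on both strands.

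MYC (chr8 from 128748 to 128754 kb, plus strand) had 1 shared site. In replicate 1 it covered 128751148 to 128751165 on chromosome 8 with a score of 132. The replicate 2 site covered 128751144 to 128751157 with a score of 46. These sites had 10 nt in common. The log2 ratio of replicate 2 to replicate 1 was -1.52, against -0.21 for the median shared site, and 12.7% of shared sites had a ratio as low. The direction was opposite to that of the SOX2 sites. Replicate 2 held a further MYC site of score 11 at 128748455 to 128748473, which was 2670 nt upstream and near the upstream end of the interval. At least 2 sites were found in 37.9% of the 6 kb windows with a site in replicate 2.

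KLF4, the remaining reprogramming factor among the members, had no site in either list in its interval (chr9 from 110247 to 110252 kb, minus strand). Neither list had a site on its strand within 100 kb.

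LIN28B had the most sites of the 7 genes in replicate 2, and most of them lay in the last 10 kb of its interval. Its interval of 128 kb (chr6 from 105404 to 105532 kb, plus strand) held 2 sites in replicate 1, both shared, and 9 in replicate 2. The strongest replicate 2 site, 105528261 to 105528275, was shared and lay inside a replicate 1 site that ran from 105528257 to 105528276. The score was 6 in replicate 1, close to the lowest score of 5 in that list, and 197 in replicate 2. The log2 ratio of 5.04 was exceeded or equalled by 0.442% of shared sites, which was 16 of 3621. The other shared site ran from 105492052 to 105492070 in replicate 1. Its partner in replicate 2 ran from 105492043 to 105492058, with 7 nt in common, and both scored 11.

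The last 10 kb of the LIN28B interval make up 7.81% of its width. They held 1 of 2 sites in replicate 1 and 8 of 9 in replicate 2, with 97.2% of the gene's score in the latter. These sites spanned 2948 nt, from 105526757 to 105529704. The longest coding LIN28B transcript in GENCODE has 5505 nt, of which its last exon makes up 4919 nt. That exon's share of the spliced RNA is thus far larger than the share of interval width above, since the interval is mostly intron. The gathering of sites in the last 10 kb therefore does not by itself show crowding along the spliced RNA. Whether the sites crowd along that RNA was not tested. The exon is mostly 3′ untranslated, with 4549 nt of 3′ untranslated region against 753 nt of coding sequence in the whole transcript. The length of the exon would hold all of these sites, but their place in it was not determined for want of an hg19 annotation. Over this span replicate 2 had 2.71 sites per kb. In the same unit it had 6.64 gene-strand sites over the SOX2 span, which was drawn from both lists and both strands. Each span runs from the first to the last listed site. These densities are therefore set by the sites counted and do not compare like stretches of RNA. Counted over whole intervals, 19.7% of 128 kb windows with a site held 9 or more in replicate 2, and 49% held 2 or more in replicate 1, so the number of LIN28B sites alone was not unusual. The LIN28B score share was 3.17 per 1000000 in replicate 1 and 75.3 in replicate 2, and the mean of 39.2 ± 51.0 (SD, n = 2) had a spread larger than itself.

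**Figure D3:**
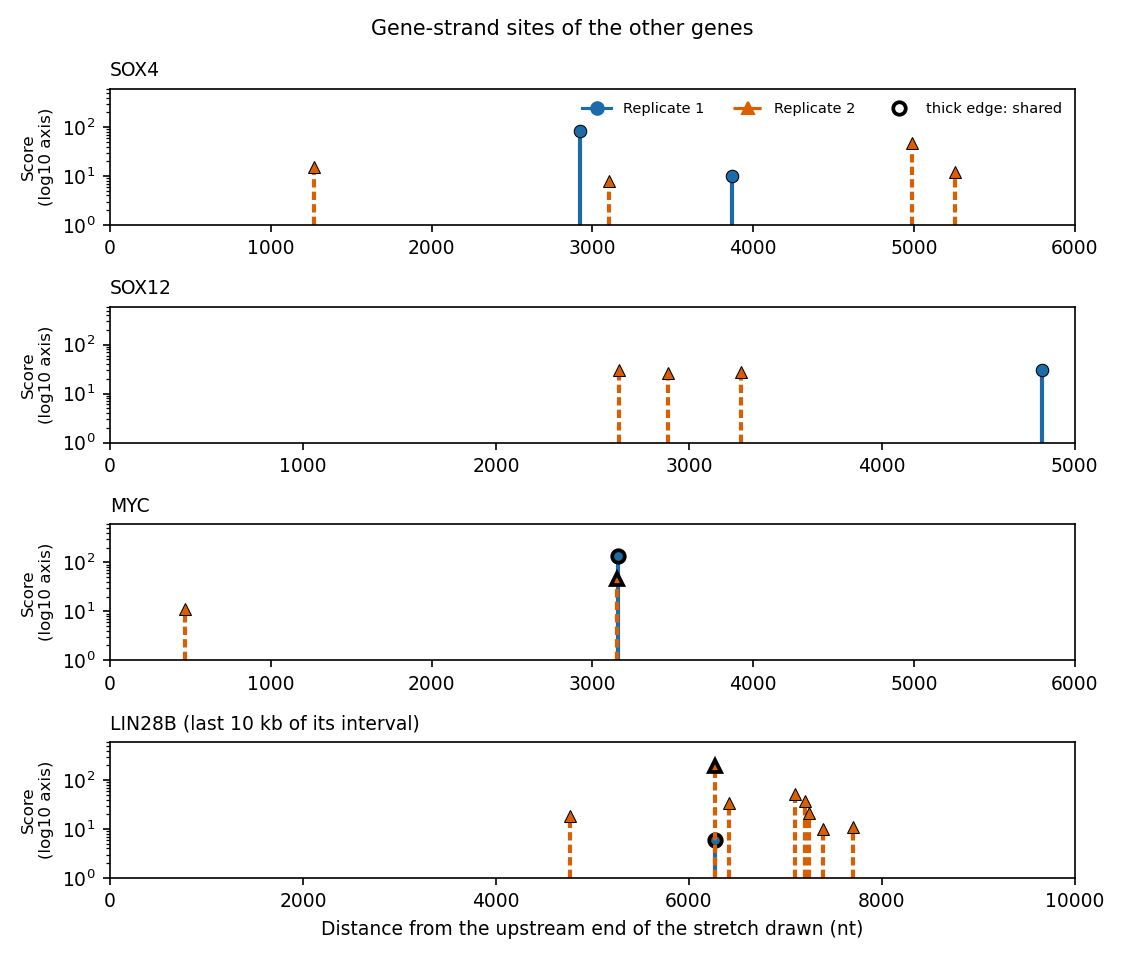
Gene-strand sites of SOX4, SOX12, MYC and the last 10 kb of LIN28B are drawn by distance in nt from the upstream end of the stretch (x axis) and by score (log axis), with circles for replicate 1, triangles for replicate 2 and thick edges for shared sites. Scores run from 6 to 197, and the only shared positions drawn are 1 in MYC and 1 in LIN28B.

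Across the 7 genes, 5 of 9 replicate 1 sites were shared (55.6%, 95% Wilson interval 26.7 to 81.1), in SOX2, MYC and LIN28B. Sharing means an overlap of 1 nt or more, strand for strand, between the lists. Over all sites of replicate 1 the share was 21.3%. Seen from replicate 2, 5 of 24 sites were shared (20.8%, interval 9.25 to 40.5), against 6.5% over the whole list. Without SOX2 the shares were 3 of 6 in replicate 1 (50%, interval 18.8 to 81.2) and 3 of 18 in replicate 2 (16.7%, 5.84 to 39.2). Both of these intervals include the share of the whole list. Sites of 1 RNA are not independent, and these intervals cover counting error only.

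High scores go with sharing in these lists, and SOX2 has high scores. Whether score accounts for the sharing of the SOX2 sites was not tested. Of all replicate 1 sites within the score range of the SOX2 sites, 142 to 563, 49.5% were shared, compared with 2 of 3 SOX2 sites. In replicate 2 the range was 57 to 3877, and 21.1% of sites in it were shared, compared with 2 of 6. Sites within a range are not matched in score: the SOX2 sites of replicate 2 had a median of 635.5, against 19 for the list, and the SOX2 shares rest on 3 and 6 sites. For the other members the scores ranged from 6 to 132 in replicate 1, where 17.5% of all sites were shared, and from 8 to 197 in replicate 2, where 5.68% were. Their counts of 3 of 6 and 3 of 18 were higher, and rested on 3 sites in MYC and LIN28B.

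**Figure D4:**
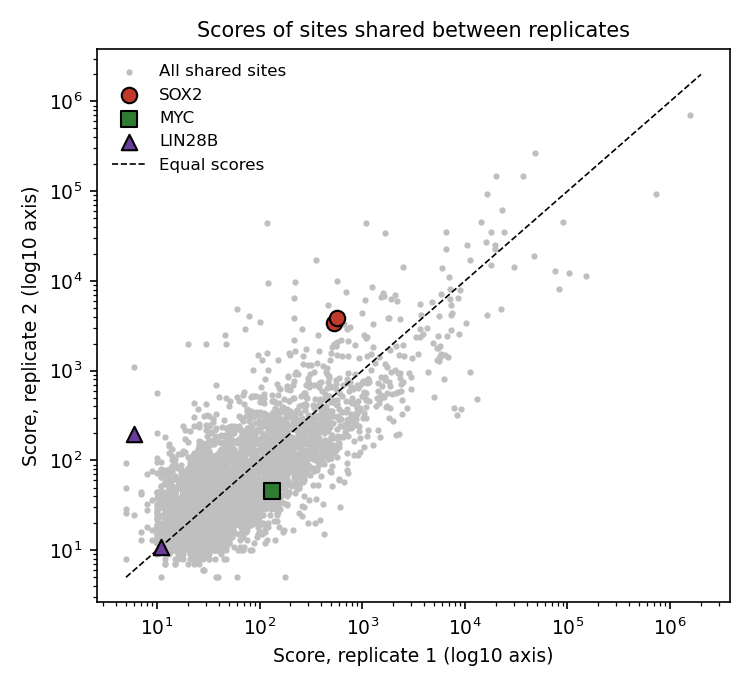
Scores in replicate 1 (x axis) and replicate 2 (y axis), both on log axes, are plotted for all 3621 shared sites (grey) and for the 5 shared sites of SOX2, MYC and LIN28B, with a dashed line for equal scores. The SOX2 points and the LIN28B point at scores of 6 and 197 lie above the line, the MYC point at 132 and 46 below it, and the other LIN28B point, at 11 in both, on it.

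Between the experiments, the number of sites in these genes was larger in the longer list. Replicate 2 had 2.67 times as many member sites as replicate 1, and 3.29 times as many sites in all. Each of the 5 genes with sites had more in replicate 2: 6 against 3 for SOX2, 4 against 2 for SOX4, 3 against 1 for SOX12, 2 against 1 for MYC and 9 against 2 for LIN28B. The scores did not all follow: those of SOX4 and MYC summed to less in replicate 2, at 83 against 93 and 57 against 132.

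Related genes outside the members were examined in the same way, over a list of 16 genes: the reprogramming and pluripotency factors POU5F1, NANOG, LIN28A and SALL4, the SOX genes SOX1, SOX3, SOX8, SOX9, SOX13 and SOX15, MYCN, MYCL and MAX, KLF2 and KLF5, and TRIM71. Of these, 11 had no gene-strand site in either list. SOX1 and SOX3, the closest relatives of SOX2, were among them. Interval width differed greatly: the 3 widest, MAX, TRIM71 and SOX13 with 98000, 75000 and 55000 nt, all had sites, while the empty ones measured at most 23000 nt. The share of all genes without a site was not computed for want of an hg19 annotation, so the count of empty genes has no background beside it. In replicate 1, 2 of the 16 had a site, and in replicate 2, 4 did. MAX, the dimerization partner of MYC, was the only one with sites in both, 1 in replicate 1 (score 233) and 7 in replicate 2 (summed score 323), and the replicate 1 site was shared. The intervals of these 16 genes were set by hand from general knowledge of hg19. They were compared with the annotation for chromosome, strand and length only, so these counts are less certain than those of the members. Lengths did not always match. The NANOG interval of 8000 nt was shorter than the gene in GENCODE (11348 nt) and RefSeq (9745 nt). The POU5F1 interval of 7000 nt exceeded the RefSeq length (6346 nt) but not the GENCODE one (16395 nt). Both genes are among the empty ones.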

How the data were processed

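Site lists of 2 PAR-CLIP libraries of 1 group were used, each a deposited table of position, site name, score and strand. Per the labels' protocols, RNA was trimmed with RNase T1, an enzyme that cleaves at guanosine, and the small-RNA libraries went through 18 cycles of PCR before single-end reads of 50 nt. Bowtie 1.1.2, bcl2fastq and the build hg19 are named, per the submitters' processing notes. Not given in the sources used here are the site caller, its thresholds, the handling of multiply matching reads and what the score of the deposited lists counts, so read depth is unknown. The deposited start and end coordinates were kept on hg19 and are printed counting from 1.

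Sites were assigned by overlap of at least 1 nt with the intervals, and sharing was computed in Python 3.11.15 (numpy 2.4.6, pandas 2.3.3, scipy 1.17.1), after checking the overlap code on simulated data. The partner with the longest overlap gave score ratios. Shares have 95% Wilson intervals. No test of conditions was made, since there is 1 group. The reference supplied (GENCODE 29 and RefSeq tables) is on GRCh38, so only lengths, strands and chromosomes were read from it. Site sequences were not analysed here. All 7 members were named with all their sites, and values are given for genes of the related list with sites in both lists. The members and lists were chosen with earlier results of these data known.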

Additional observations from a re-analysis of the deposited data

How the results depend on the processing

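Of 42 recomputed numbers of sites, 36 stayed within 1.5 times of the reported ones, 12 of them for SOX11 and KLF4, which had no site. The shares of shared sites stayed within their intervals with 50% of both sites required, gaps of up to 50 nt, strand ignored, higher scores only, and without LIN28B or SOX2. These intervals are so wide that this says little about stability. With scores of at least 100 in both lists, the replicate 2 share was 40% (2 of 5), against 20.8% as reported. With 50% of both sites required it was 16.7%. The replicate 1 share ranged from 42.9% without LIN28B to 55.6% as reported. Extending the intervals by 1 kb changed no count. Keeping only scores at or above the median of the list left 1 SOX4 site in each replicate, 1 MYC site in replicate 2, and 0 LIN28B sites in replicate 1 and 5 in replicate 2; a score of at least 10 left 1 LIN28B site in replicate 1. Scaling to the score outside the 10 strongest sites gave mean score shares of 1559 per 1000000 for SOX2, 61.5 for LIN28B, 33.7 for SOX4, 19.6 for SOX12 and 38.9 for MYC, each higher than reported, as the smaller divisor dictates. Without either replicate, the score share ranged from 230 to 1666 for SOX2, 16.0 to 17.3 for SOX4, 5.59 to 16.6 for SOX12, 11.0 to 24.6 for MYC and 3.17 to 75.3 for LIN28B; with 2 replicates these are the values of each, and say nothing about stability. The median log2 score ratio of the 5 shared pairs was 2.67, and 0 over the 3 pairs without SOX2, an alternative chosen after seeing the data. Leaving out a replicate leaves no overlap to compute. No paired analysis was possible because both libraries belong to a single group. Depth is unknown, so what it limits among weak sites was not settled.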

Other observations

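The counts in this paragraph were singled out after their values were seen. SOX15 had no site on its own strand, but the opposite strand of its interval held 1 site in replicate 1 and 2 in replicate 2. The MAX interval, 98000 nt wide, held 1 opposite-strand site in replicate 1 and 5 in replicate 2. How often windows of these widths hold such sites was not computed. Whether other genes lie on the opposite strand of the SOX15 and MAX intervals was not checked, so these sites cannot be assigned to either gene. Next to KLF4, the 100 kb upstream held 1 opposite-strand site in each list and none on the gene's strand.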
